A study of Mus musculus with 12 samples.

Results

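Integrins are the cell surface receptors that hold a cell to its matrix, and laminins are the basement membrane proteins that many of them bind. Here 36 mouse genes whose symbols name an integrin alpha chain, an integrin beta chain or a laminin chain were taken from the 53735 symbols of a bulk RNA-seq count table. They were 18 integrin alpha chains, 8 integrin beta chains and 10 laminin chains, matched by symbol. The libraries came from mouse mammary epithelial cells of basal and of luminal type, sorted by flow cytometry on the surface proteins CD24 and CD49f. Mice were wild type (WT) or MMTVRANK, a transgenic line named for the MMTV promoter, which is active in mammary epithelium, and for the receptor Rank (gene Tnfrsf11a). Each genotype gave 3 basal and 3 luminal libraries, which makes 4 groups and 12 libraries. The labels give no age, treatment or further allele, and do not say that libraries of a group came from separate animals, so p-values measure the spread between libraries, which may be technical. CD49f is the protein of Itga6, so the sort itself selected directly on 1 of the 36 products. Itga6 is therefore left out of the counts, medians and tests given between the populations, except where it is said to be counted. The chains that pair with it, Itgb1 and Itgb4, are kept, and their comparisons between populations may not be independent of the sort.

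An integrin is a pair of an alpha and a beta chain, and the pair decides what is bound: alpha3, alpha6 and alpha7 chains make laminin receptors, alpha1, alpha2, alpha10 and alpha11 chains make collagen receptors, and alpha5, alpha8 and alphav chains read the RGD motif of proteins such as fibronectin. A laminin is a trimer of 1 alpha, 1 beta and 1 gamma chain, secreted into the basement membrane that surrounds the mammary ducts. Basal (myoepithelial) cells lie on that membrane and luminal cells line the duct, and the integrin alpha6beta4 anchors epithelial cells to laminin-332 in hemidesmosomes.

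Levels are given as RPKM, a read density per length of exon and per library size after TMM scaling, so that genes of different length can be set side by side. Log2 fold changes, their standard errors (SE) and adjusted p-values come from the quasi-likelihood test of edgeR, adjusted by Benjamini and Hochberg's method over the 18236 genes that passed a filter on low counts, with adjusted p under 0.05 as the threshold. Of the 36 genes, 34 passed the filter, and Itgad and Itgax did not. A gene can pass it through 1 group in which it is high. Library totals lay between 12459547 and 15069578 counts. The 10 basal markers summed to 22960 to 30040 CPM (counts scaled to library size) in the basal libraries and 36.9 to 390.7 CPM in the luminal ones, and the 10 luminal markers to 6843 to 17830 CPM in luminal and 292 to 540.4 CPM in basal libraries. Tnfrsf11a stood at 73.7, 159 and 65.3 CPM in WT basal, 6.36, 90.8 and 9.91 in WT luminal, 415, 129 and 218 in MMTVRANK basal and 319, 156 and 239 CPM in MMTVRANK luminal libraries 1 to 3. Both libraries labelled WT replicate 2 held more of it than the other WT libraries of their population, against their genotype label, and WT basal replicate 2 was also above MMTVRANK basal replicate 2. Their titles and cell subtype labels name opposite populations. The titles were used, which the population markers matched. Results on the 36 genes that lose their call without these libraries are named with them. The 12 leukocyte markers summed to 1102 CPM in MMTVRANK luminal replicate 3, 228 CPM in MMTVRANK basal replicate 3 and 20.3 to 158.7 CPM in the other libraries. Of these sums Lcp1 alone made 105.8 to 182.1 CPM in luminal libraries, and Cd74 made 610.3 CPM in MMTVRANK luminal replicate 3. Each of these markers but Cd3e was highest in that library. The 8 fibroblast markers summed to 2913 CPM in WT basal replicate 1 and to 37.9 to 663.1 CPM elsewhere.

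Promoters are shown for 4 genes whose levels the results turn on: the collagen receptor chain Itga1 and the RGD receptor chain Itga8, both far lower in luminal cells, the shared beta chain Itgb1, and the laminin chain Lama5, which ran the other way. Each sequence is the 250 bases before the annotated start site from RefSeq (GRCm38.p6), written 5′ to 3′ on the gene's strand, with capitals marking a CATTCC (TEAD) or GGGCGG (GC box) match on either strand.
Itga1 (chr13:115101965-115102214, minus strand): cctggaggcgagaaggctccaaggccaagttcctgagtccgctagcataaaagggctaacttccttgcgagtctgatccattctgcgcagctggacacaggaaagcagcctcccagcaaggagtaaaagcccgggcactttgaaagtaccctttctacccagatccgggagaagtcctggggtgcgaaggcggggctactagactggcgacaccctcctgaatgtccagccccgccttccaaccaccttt
Itga8 (chr2:12301945-12302194, minus strand): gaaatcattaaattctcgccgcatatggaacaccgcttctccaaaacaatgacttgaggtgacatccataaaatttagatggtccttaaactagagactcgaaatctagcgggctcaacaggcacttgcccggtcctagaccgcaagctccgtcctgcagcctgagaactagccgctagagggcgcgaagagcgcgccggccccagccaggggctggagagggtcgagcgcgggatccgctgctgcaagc
Itgb1 (chr8:128685404-128685653, plus strand): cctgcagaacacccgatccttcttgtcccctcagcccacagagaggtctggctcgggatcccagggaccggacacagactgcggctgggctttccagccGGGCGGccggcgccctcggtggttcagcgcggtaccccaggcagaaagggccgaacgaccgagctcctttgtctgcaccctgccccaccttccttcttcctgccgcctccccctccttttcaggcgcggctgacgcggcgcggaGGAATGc
Lama5 (chr2:180225860-180226109, minus strand): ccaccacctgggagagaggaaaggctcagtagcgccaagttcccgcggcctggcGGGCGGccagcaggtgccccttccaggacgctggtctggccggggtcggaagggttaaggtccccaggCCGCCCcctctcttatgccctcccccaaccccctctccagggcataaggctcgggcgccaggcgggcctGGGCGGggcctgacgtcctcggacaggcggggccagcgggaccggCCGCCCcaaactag
The Itga1 promoter had a GC content of 57.6%, that of Itga8 56.4%, that of Itgb1 68.0% and that of Lama5 72.4%, against a median of 52.4% over 32851 windows of the same length. Promoters of 23 of the 36 genes were searched, in 26 windows, and Lama3 was not among them. Of these windows, 9 held GGGCGG, 3 held CATTCC (Itga10, Itgb1 and Lamb3), 1 held TGANTCA (AP-1, in Itgax) and 0 held an NF-kB consensus motif. Over all windows the shares were 32.7% for GGGCGG, 12.6% for CATTCC, 6.75% for TGANTCA and 4.77% for the NF-kB consensus, each searched on both strands. The Lama5 window held 4 GC boxes, the Itgb1 window 1 GC box and 1 CATTCC, and the Itga1 and Itga8 windows none of the 4 motifs.

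In WT basal cells Itga6 and Itgb1 led their families, with mean levels of 207 ± 23.8 and 193 ± 13.9 RPKM (SD, n = 3). Behind Itga6 came Itga3 at 80.7 and Itgav at 43.9 RPKM, with no overlap of libraries between these neighbours. Itga8, Itga5, Itga9 and Itga2 followed at means of 21.3, 19.2, 15.6 and 12.7 RPKM, and each of these overlapped the next in order. Among the beta chains Itgb5 at 31.8 and Itgb4 at 25.9 RPKM stood below Itgb1 and overlapped each other. Among the laminins Lamc1 at 138.6 and Lama1 at 122.0 RPKM were highest and overlapped, followed by Lama3 at 86.5 RPKM. In WT luminal cells the order of the integrin alpha chains began with Itga6, Itga3 and Itgav again, at 42.03, 27.6 and 21.96 RPKM, and Itga6 and Itga3 overlapped there.

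**Figure D1:**
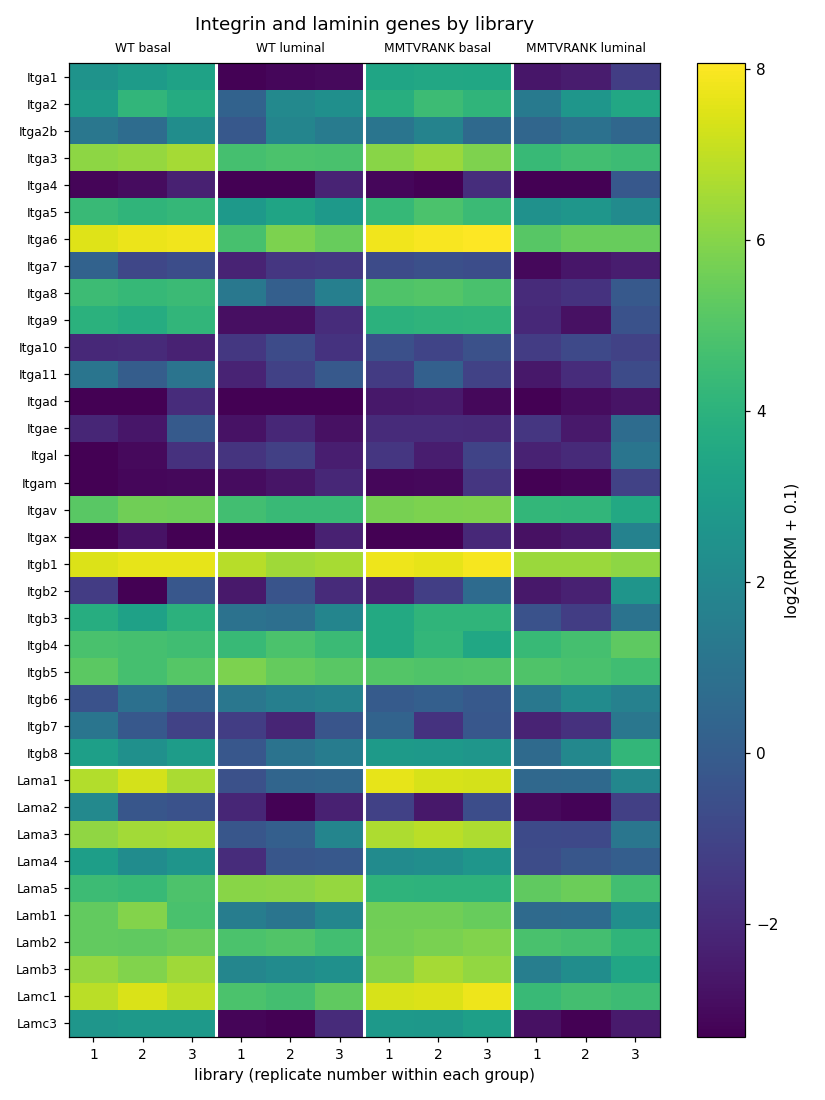
RPKM of the 36 genes (rows) in the 12 libraries (columns, by group and replicate number), on a log colour scale. Lama1, Lama3, Lamb3, Itga1 and Itga9 are each far higher in every basal library than in all 6 luminal libraries. Itgb1 and Itga3 are high in both populations, and Lama5 is higher in the luminal cells of each genotype.

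The question of the lineage comparison is which of these chains separate basal from luminal cells in each genotype. Without the sort marker Itga6, 21 of 33 genes passed the test in WT mice, 2 of them higher and 19 lower in luminal cells, against 38.1% of all genes tested (18% higher, 20% lower). In MMTVRANK mice 20 passed, 3 higher and 17 lower, against 33.2% of all genes (16.1% higher, 17% lower). With Itga6 counted they were 22 and 21 of 34. The median log2 difference of the 33 was −1.69 in WT and −1.44 in MMTVRANK mice, and that of all genes −0.07 and 0.05. In these bulk samples fewer cells of a type and less RNA per cell cannot be told apart. All of these calls fell on genes that are no leukocyte or platelet integrin. With the replicate number as a block, a pairing that the labels do not state, and with Itga6 counted, 24 were called in WT mice (40.2% of all genes) and 22 in MMTVRANK mice (35.6%).

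All 10 of these laminin chains passed the test between luminal and basal cells in WT mice, 9 lower and 1 higher in luminal cells, and 9 of the 10 did in MMTVRANK mice, 8 lower and 1 higher. Of all genes tested, 38.1% were called in WT (18% higher, 20% lower) and 33.2% in MMTVRANK mice (16.1% higher, 17% lower). Lama1, the alpha chain of laminin-111, was among the laminin chains with the largest differences. Lama1 stood at 109, 160.1 and 97.5 RPKM in WT basal and at 0.605, 1.23 and 1.28 RPKM in WT luminal libraries 1 to 3. Lama1 in MMTVRANK mice stood at 197, 166 and 163 RPKM in basal and at 1.36, 1.38 and 3.82 RPKM in luminal libraries. The log2 difference, luminal over basal, was −6.87 (SE 0.51, adjusted p = 2.25e-06) in WT and −6.32 (SE 0.49, adjusted p = 2.95e-06) in MMTVRANK mice. All luminal libraries lay far below all basal ones, and MMTVRANK luminal replicate 3 was the highest of them, without which the MMTVRANK value of Lama1 was −7.00 (adjusted p = 1.58e-07). Lama3, the alpha chain of laminin-332, had a like range. Lama3 stood at 72.6, 90.1 and 96.7 RPKM in WT basal and at 0.717, 1.004 and 3.55 RPKM in WT luminal libraries 1 to 3. Lama3 in MMTVRANK mice stood at 102, 119.9 and 102 RPKM in basal and at 0.481, 0.464 and 2.12 RPKM in luminal libraries. Its log2 difference was −5.62 (SE 0.76, adjusted p = 0.0002) in WT and −6.72 (SE 0.80, adjusted p = 8.9e-05) in MMTVRANK mice. The groups were far apart, with replicate 3 the highest luminal library in both genotypes. Without WT luminal replicate 3 the WT value of Lama3 was −6.64 (adjusted p = 0.000126), and without MMTVRANK luminal replicate 3 the MMTVRANK value was −7.83 (adjusted p = 2.94e-05).

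Lama5, the alpha chain of laminin-511 and laminin-521, was the laminin that was higher in luminal cells. Lama5 stood at 22.2, 20.1 and 29.6 RPKM in WT basal and at 66.6, 68.6 and 77.9 RPKM in WT luminal libraries 1 to 3. Lama5 in MMTVRANK mice stood at 17.1, 16.5 and 16.3 RPKM in basal and at 38.5, 44.96 and 24.3 RPKM in luminal libraries. The log2 difference was 1.57 (SE 0.22, adjusted p = 0.000143) in WT and 1.11 (SE 0.22, adjusted p = 0.00175) in MMTVRANK mice. Every luminal library was above every basal library of its genotype, and MMTVRANK luminal replicate 3 was the lowest luminal library.

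Lama4 and Lama2, alpha chains best known from vessels and from mesenchyme and muscle, were low in epithelium. Lama4 stood at 8.29, 4.56 and 5.96 RPKM in WT basal and at 0.174, 0.723 and 0.790 RPKM in WT luminal libraries 1 to 3. Lama4 in MMTVRANK mice stood at 4.40, 4.84 and 6.19 RPKM in basal and at 0.519, 0.736 and 0.966 RPKM in luminal libraries. Lama4 was lower in luminal cells in both genotypes, with log2 differences of −3.47 (SE 0.48, adjusted p = 0.000166) and −2.79 (SE 0.46, adjusted p = 0.000669). The 8 endothelial markers were lower in luminal cells too, 8 of 8 called in each genotype with median log2 differences of −4.50 in WT and −3.34 in MMTVRANK mice. Their sum was 72.4 to 262.6 CPM in basal and 7.17 to 24.3 CPM in luminal libraries, and among them Emcn was at 0 in WT luminal replicate 2. Of the 7 pericyte markers 6 were lower and 1 higher in WT and 3 lower and 1 higher in MMTVRANK mice, while their sum was 87.9 to 249.9 CPM in basal and 187 to 268 CPM in luminal libraries. Lama2 stood at 4.03, 0.723 and 0.628 RPKM in WT basal and at 0.133, 0.00434 and 0.109 RPKM in WT luminal libraries 1 to 3. Lama2 in MMTVRANK mice stood at 0.366, 0.0671 and 0.542 RPKM in basal and at 0.0208, 0.00783 and 0.351 RPKM in luminal libraries. WT basal replicate 1, the library with the high fibroblast markers, held most of the Lama2 signal. The WT log2 difference of Lama2 was −4.44 (SE 1.46, adjusted p = 0.0332), and without WT basal replicate 1 it was −3.02 (adjusted p = 0.131). The MMTVRANK value was −1.34 (SE 1.31, adjusted p = 0.475), and without MMTVRANK luminal replicate 3 it was −4.45 (adjusted p = 0.0540). Of the 8 fibroblast markers 8 were lower in luminal cells of WT and 2 in those of MMTVRANK mice. These endothelial, pericyte and fibroblast counts are to be read against the shares of all genes called. Those were 38.1% in WT (18% higher, 20% lower) and 33.2% in MMTVRANK mice (16.1% higher, 17% lower). The part of other cell types in the Lama4 and Lama2 values was not tested. The WT call on Lama2 was also lost without WT luminal replicate 1, 2 or 3, without MMTVRANK basal replicate 1 and without both WT replicate 2 libraries, with adjusted p between 0.0521 and 0.0884. By limma-voom on all libraries that call was lost too.

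Of the beta chains, Lamb1 and Lamb3 were far lower in luminal cells and Lamb2 only modestly so. Lamb1 stood at 40.2, 62.1 and 27.9 RPKM in WT basal and at 2.73, 2.03 and 3.63 RPKM in WT luminal libraries 1 to 3. Lamb1 in MMTVRANK mice stood at 48.7, 48.3 and 42.8 RPKM in basal and at 1.42, 1.49 and 4.87 RPKM in luminal libraries. For Lamb1, a chain of laminin-111 and laminin-511, the log2 difference was −3.96 (SE 0.50, adjusted p = 0.000122) in WT and −4.17 (SE 0.51, adjusted p = 9.68e-05) in MMTVRANK mice. Lamb3 stood at 75.8, 60.04 and 86.8 RPKM in WT basal and at 3.68, 4.36 and 5.23 RPKM in WT luminal libraries 1 to 3. Lamb3 in MMTVRANK mice stood at 61.9, 93.02 and 74.6 RPKM in basal and at 2.87, 4.77 and 10.6 RPKM in luminal libraries. For Lamb3, the beta chain of laminin-332, it was −4.07 (SE 0.42, adjusted p = 2.47e-05) and −3.65 (SE 0.41, adjusted p = 4.52e-05). Luminal and basal libraries of both genes did not overlap. Without MMTVRANK luminal replicate 3 the MMTVRANK value was −4.999 (adjusted p = 1.09e-06) for Lamb1 and −4.32 (adjusted p = 8.12e-07) for Lamb3. Lamb2 stood at 40.01, 39.1 and 43.7 RPKM in WT basal and at 28.7, 31.5 and 24.3 RPKM in WT luminal libraries 1 to 3. Lamb2 in MMTVRANK mice stood at 49.5, 54.1 and 59.9 RPKM in basal and at 27.9, 25.3 and 17.6 RPKM in luminal libraries. Lamb2, the beta chain of laminin-521, differed by −0.54 (SE 0.18, adjusted p = 0.0298) in WT and by −1.21 (SE 0.18, adjusted p = 0.000236) in MMTVRANK mice, with no overlap in either. The WT call on Lamb2 was lost when any of 5 single WT libraries was left out (WT basal replicates 1, 2 and 3, WT luminal replicates 1 and 3), with adjusted p between 0.0527 and 0.119, and also without both WT replicate 2 libraries (adjusted p = 0.0577). With no low count filter that call was lost too.

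Lamc1 stayed well above 10 RPKM in luminal cells, and Lamc3 was near 0 there. Lamc1 stood at 119, 169 and 128 RPKM in WT basal and at 28.9, 24.98 and 38.96 RPKM in WT luminal libraries 1 to 3. Lamc1 in MMTVRANK mice stood at 167, 174 and 218 RPKM in basal and at 20.9, 25.4 and 22.4 RPKM in luminal libraries. Lamc1, the gamma chain of most laminins, differed by −2.16 (SE 0.21, adjusted p = 1.05e-05) in WT and −3.02 (SE 0.22, adjusted p = 1.12e-06) in MMTVRANK mice. Every luminal library of Lamc1 lay below every basal library of its genotype. Lamc3 stood at 6.18, 7.14 and 6.93 RPKM in WT basal and at 0.0123, 0 and 0.167 RPKM in WT luminal libraries 1 to 3. Lamc3 in MMTVRANK mice stood at 6.83, 6.70 and 8.53 RPKM in basal and at 0.0447, 0 and 0.0769 RPKM in luminal libraries. Lamc3, a gamma chain of low abundance here, had no read in 1 luminal library of each genotype, where a count of 0 allows up to 3 counts. Its log2 difference was −6.71 (SE 0.85, adjusted p = 0.000113) and −7.43 (SE 0.89, adjusted p = 7.96e-05). Without replicate 3 of the luminal group it was −9.81 (adjusted p = 1.02e-05) in WT and −8.30 (adjusted p = 0.000211) in MMTVRANK mice.

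Summed per length, the 5 laminin alpha chains came to 240.5 ± 31.2 RPKM in WT basal and 74.5 ± 8.07 RPKM in WT luminal cells (SD, n = 3). In MMTVRANK mice the sums were 305.6 ± 17.1 RPKM in basal and 40.0 ± 8.03 RPKM in luminal cells. Lama5 made up 10.2% ± 2.79 of the alpha sum in WT basal and 95.5% ± 2.25 in WT luminal cells. In MMTVRANK mice the Lama5 share was 5.45% ± 0.187 in basal and 88.6% ± 10 in luminal cells, where replicate 3 was lowest at 77.0%. In basal cells Lama1 held 50.2% ± 7.90 of the alpha sum in WT and 57.4% ± 3.70 in MMTVRANK mice, and Lama3 36.1% ± 5.11 and 35.4% ± 3.57. By group mean the predominant alpha chain transcript was Lama1 in basal cells and Lama5 in luminal cells of both genotypes, but in WT basal replicate 3 Lama1 and Lama3 were nearly equal at 42.3% and 41.98%. Among the beta chains, Lamb2 held 25.8% ± 1.66 in WT basal and 79.4% ± 5.31 in WT luminal cells, and 30.8% ± 3.06 and 73.4% ± 17.7 in the MMTVRANK populations. A share of transcripts says nothing of the trimers that were secreted.

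**Figure D2:**
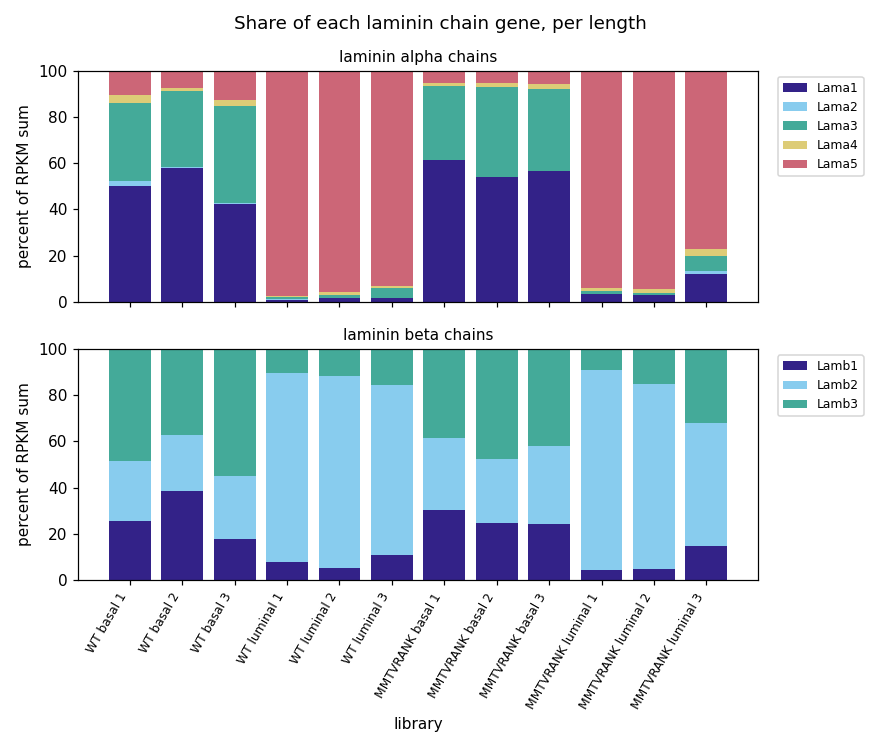
Share of each laminin chain in the summed RPKM of its class (alpha or beta), in percent, with 1 bar for each of the 12 libraries. Lama5 fills most of the alpha bar in the luminal groups and Lama1 and Lama3 most of it in the basal groups, and Lamb2 takes the largest part of the beta bar in the luminal groups.

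The low luminal levels can be set against the basal markers measured in the same libraries. As a percentage of the mean of the basal group of their genotype, the 10 basal markers summed to 0.153%, 0.245% and 0.467% in WT luminal and 0.270%, 0.394% and 1.41% in MMTVRANK luminal libraries 1 to 3. Lama1 stood at 0.496%, 1.01% and 1.05% of its basal mean in WT luminal, and at 0.774%, 0.788% and 2.17% in MMTVRANK luminal libraries. Itga1 stood at 0.0536%, 0.203% and 0.319% in WT, below the marker sum in each library, and at 0.580%, 0.769% and 3.02% in MMTVRANK mice, above it in each. MMTVRANK luminal replicate 3 was thus the highest of its group for the markers, Lama1 and Itga1 alike. The part of basal RNA in the luminal values of these genes was not tested. Lama4 stood at 2.77% to 12.6% of its basal mean in WT and 10.1% to 18.8% in MMTVRANK luminal libraries, above the marker sum throughout.

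Among the integrin alpha chains other than Itga6, 8 of the 15 tested were lower and 0 higher in luminal cells of WT mice, where 20% of all genes were lower. In MMTVRANK mice 7 were lower and 0 higher, where 17% of all genes were lower. The sort marker Itga6, the alpha chain of the laminin receptors alpha6beta1 and alpha6beta4, is given as a description. Itga6 stood at 180.3, 213 and 227 RPKM in WT basal and at 27.2, 56.4 and 42.5 RPKM in WT luminal libraries 1 to 3. Itga6 in MMTVRANK mice stood at 228, 246 and 268 RPKM in basal and at 34.4, 42.1 and 42.9 RPKM in luminal libraries. Every luminal library was below every basal library.

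Itga3 and Itgb1, the chains of a receptor for laminin-332 and laminin-511, were lower in luminal cells but stayed among the most abundant chains there. Itga3 stood at 70.9, 77.95 and 93.3 RPKM in WT basal and at 26.2, 28.6 and 27.9 RPKM in WT luminal libraries 1 to 3. Itga3 in MMTVRANK mice stood at 65.8, 82.4 and 59.1 RPKM in basal and at 20.4, 24.5 and 22.4 RPKM in luminal libraries. The Itga3 log2 difference was −1.55 (SE 0.16, adjusted p = 1.88e-05) in WT and −1.62 (SE 0.16, adjusted p = 1.3e-05) in MMTVRANK mice. Itgb1 stood at 177, 199 and 203 RPKM in WT basal and at 115, 88.1 and 95.1 RPKM in WT luminal libraries 1 to 3. Itgb1 in MMTVRANK mice stood at 219, 202 and 242 RPKM in basal and at 81.9, 82.4 and 70.3 RPKM in luminal libraries. For Itgb1, the partner of most alpha chains, it was −0.96 (SE 0.15, adjusted p = 0.00037) and −1.50 (SE 0.15, adjusted p = 1.46e-05). Luminal libraries of both genes lay below all basal libraries. The RGD receptor chains Itga5 (fibronectin receptor) and Itgav (partner of Itgb1, Itgb3, Itgb5, Itgb6 and Itgb8) also stayed well above 1 RPKM in luminal cells. Itga5 stood at 20.96, 17.3 and 19.3 RPKM in WT basal and at 6.98, 10.1 and 7.13 RPKM in WT luminal libraries 1 to 3. Itga5 in MMTVRANK mice stood at 19.5, 28.2 and 21.5 RPKM in basal and at 5.33, 6.30 and 4.37 RPKM in luminal libraries. Itga5 differed by −1.25 (SE 0.20, adjusted p = 0.000452) in WT and −2.11 (SE 0.21, adjusted p = 1.13e-05) in MMTVRANK mice. Itgav stood at 35.5, 48.8 and 47.5 RPKM in WT basal and at 24.3, 20.7 and 20.8 RPKM in WT luminal libraries 1 to 3. Itgav in MMTVRANK mice stood at 53.7, 56.5 and 58.5 RPKM in basal and at 18.4, 17.9 and 11.7 RPKM in luminal libraries. Itgav differed by −1.001 (SE 0.19, adjusted p = 0.00131) and −1.81 (SE 0.19, adjusted p = 1.96e-05). The luminal values of both genes were all below the basal ones.

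Itga1 and Itga9 were near 0 in luminal RNA, and Itga8 was low. Itga1 is a collagen receptor chain that pairs with Itgb1. Itga1 stood at 5.69, 7.54 and 9.27 RPKM in WT basal and at 0.00402, 0.0153 and 0.0239 RPKM in WT luminal libraries 1 to 3. Itga1 in MMTVRANK mice stood at 10.3, 11.2 and 10.8 RPKM in basal and at 0.0622, 0.0825 and 0.324 RPKM in luminal libraries. The log2 difference was −8.94 (SE 0.71, adjusted p = 5.09e-06) in WT and −6.08 (SE 0.57, adjusted p = 1.47e-05) in MMTVRANK mice, and in the latter it was −7.20 (adjusted p = 1.14e-07) without MMTVRANK luminal replicate 3. The WT luminal values rest on 1, 4 and 7 counts. Itga9 stood at 15.3, 13.2 and 18.2 RPKM in WT basal and at 0.0389, 0.0369 and 0.173 RPKM in WT luminal libraries 1 to 3. Itga9 in MMTVRANK mice stood at 16.02, 16.8 and 17.6 RPKM in basal and at 0.150, 0.0416 and 0.625 RPKM in luminal libraries. Itga9, which binds tenascin-C and osteopontin with Itgb1, differed by −7.49 (SE 0.83, adjusted p = 5.15e-05) and −5.92 (SE 0.74, adjusted p = 0.000127), and by −7.45 (adjusted p = 4.41e-06) in MMTVRANK mice without luminal replicate 3. In WT mice the Itga9 value was −8.63 (adjusted p = 0.000183) without WT luminal replicate 3. Basal and luminal libraries of both genes were far apart, and replicate 3 was the highest luminal library in each genotype. Itga8 stood at 22.5, 19.5 and 21.96 RPKM in WT basal and at 2.25, 1.001 and 2.93 RPKM in WT luminal libraries 1 to 3. Itga8 in MMTVRANK mice stood at 30.3, 32.6 and 27.98 RPKM in basal and at 0.166, 0.217 and 0.803 RPKM in luminal libraries. Itga8, which binds nephronectin with Itgb1, differed by −3.37 (SE 0.51, adjusted p = 0.00043) in WT and −6.24 (SE 0.60, adjusted p = 1.76e-05) in MMTVRANK mice. In WT luminal cells it was low but present in each library, and in MMTVRANK luminal cells each library was below each WT one. Without MMTVRANK luminal replicate 3 the MMTVRANK lineage value of Itga8 was −7.29 (adjusted p = 4.16e-07).

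Itga2, the other collagen receptor chain of epithelium, was lower in luminal cells of WT mice only at the edge of the threshold. Itga2 stood at 7.46, 17.9 and 12.8 RPKM in WT basal and at 1.11, 4.02 and 5.04 RPKM in WT luminal libraries 1 to 3. Itga2 in MMTVRANK mice stood at 14.2, 22.2 and 17.4 RPKM in basal and at 2.52, 6.14 and 11.2 RPKM in luminal libraries. Its log2 difference was −1.91 (SE 0.60, adjusted p = 0.0278) in WT and −1.44 (SE 0.59, adjusted p = 0.0857) in MMTVRANK mice, and the difference between genotypes was not past the threshold at 0.47 (SE 0.82, adjusted p = 0.951). The WT call was lost without WT basal replicate 2 or 3, without WT luminal replicate 1 or 2 and without both WT replicate 2 libraries, with adjusted p between 0.0561 and 0.121. The MMTVRANK value was called without MMTVRANK luminal replicate 3 (−2.05, adjusted p = 0.0379), without WT luminal replicate 1 (adjusted p = 0.0487) and with the replicate number as a block (−1.67, adjusted p = 0.00475). Itga7, a laminin receptor chain best known from muscle and named here after its values were seen, stood at 0.436 to 1.11 RPKM in basal and 0.0168 to 0.275 RPKM in luminal libraries. It was called in both genotypes, at −1.69 (SE 0.61, adjusted p = 0.0431) in WT and −3.27 (SE 0.66, adjusted p = 0.0022) in MMTVRANK mice. The WT call on Itga7 did not survive 9 of the 12 settings that left out 1 library, nor leaving out both WT replicate 2 libraries (adjusted p = 0.0740), nor the block (−1.77, adjusted p = 0.0502). That call was also lost with no low count filter and in the fit of the compared groups only. Of the collagen receptor chains Itga10 and Itga11 neither was called, at 1.23 (adjusted p = 0.111) and −1.97 (adjusted p = 0.0796) in WT and −0.48 (adjusted p = 0.548) and −1.17 (adjusted p = 0.313) in MMTVRANK mice. With the block Itga11 was called in WT mice (−2.38, adjusted p = 0.0314).

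Of the 8 beta chains tested, 1 was higher and 2 lower in luminal cells of WT mice, a share of 37.5% called that is near the 38.1% of all genes. In MMTVRANK mice 2 were higher and 2 lower, where 33.2% of all genes were called. With the block Itgb5 was also called higher (0.48, adjusted p = 0.0305) and Itgb8 lower (−2.19, adjusted p = 0.0358) in WT mice. Itgb3, which pairs with Itgav, was lower in luminal cells. Itgb3 stood at 13.7, 9.19 and 15.98 RPKM in WT basal and at 1.85, 1.68 and 3.53 RPKM in WT luminal libraries 1 to 3. Itgb3 in MMTVRANK mice stood at 11.9, 17.6 and 17.3 RPKM in basal and at 0.634, 0.314 and 1.91 RPKM in luminal libraries. Its log2 difference was −2.46 (SE 0.54, adjusted p = 0.00443) in WT and −4.03 (SE 0.58, adjusted p = 0.000325) in MMTVRANK mice, and −5.04 (adjusted p = 7.53e-06) in the latter without luminal replicate 3. Itgb6, an epithelial partner of Itgav that activates latent TGF-beta and was named after its values were seen, was higher. Itgb6 stood at 0.620, 1.72 and 1.09 RPKM in WT basal and at 2.17, 2.94 and 3.31 RPKM in WT luminal libraries 1 to 3. Itgb6 in MMTVRANK mice stood at 0.872, 0.996 and 0.815 RPKM in basal and at 2.26, 4.36 and 3.06 RPKM in luminal libraries. Its log2 difference was 1.29 (SE 0.36, adjusted p = 0.0138) in WT and 1.85 (SE 0.37, adjusted p = 0.00201) in MMTVRANK mice, at low levels throughout.

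Itgb4, the partner of Itga6 in hemidesmosomes, was higher in luminal cells of MMTVRANK mice and not called in WT mice. Itgb4 stood at 27.4, 26.3 and 23.9 RPKM in WT basal and at 20.1, 28.4 and 21.9 RPKM in WT luminal libraries 1 to 3. Itgb4 in MMTVRANK mice stood at 11.9, 18.6 and 10.97 RPKM in basal and at 20.6, 26.3 and 37.6 RPKM in luminal libraries. The log2 difference was −0.14 (SE 0.24, adjusted p = 0.696) in WT, where the populations overlapped, and 1.03 (SE 0.25, adjusted p = 0.00662) in MMTVRANK mice, where all luminal libraries were above all basal ones. Without both MMTVRANK replicate 3 libraries the latter was 0.61 (adjusted p = 0.107). The difference between the genotypes in this value was 1.17 (SE 0.35, adjusted p = 0.448). Itgb4 shares 7.66% of its exon bases with B230344G16Rik on the other strand, and the counting used no strand. Beside Itga6, whose luminal mean was 42.03 RPKM in WT and 39.8 RPKM in MMTVRANK mice, the luminal mean of Itgb4 was 23.5 and 28.2 RPKM. In basal cells Itgb4 stood at 25.9 and 13.8 RPKM beside 207 and 247 RPKM of Itga6.

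**Figure D3:**
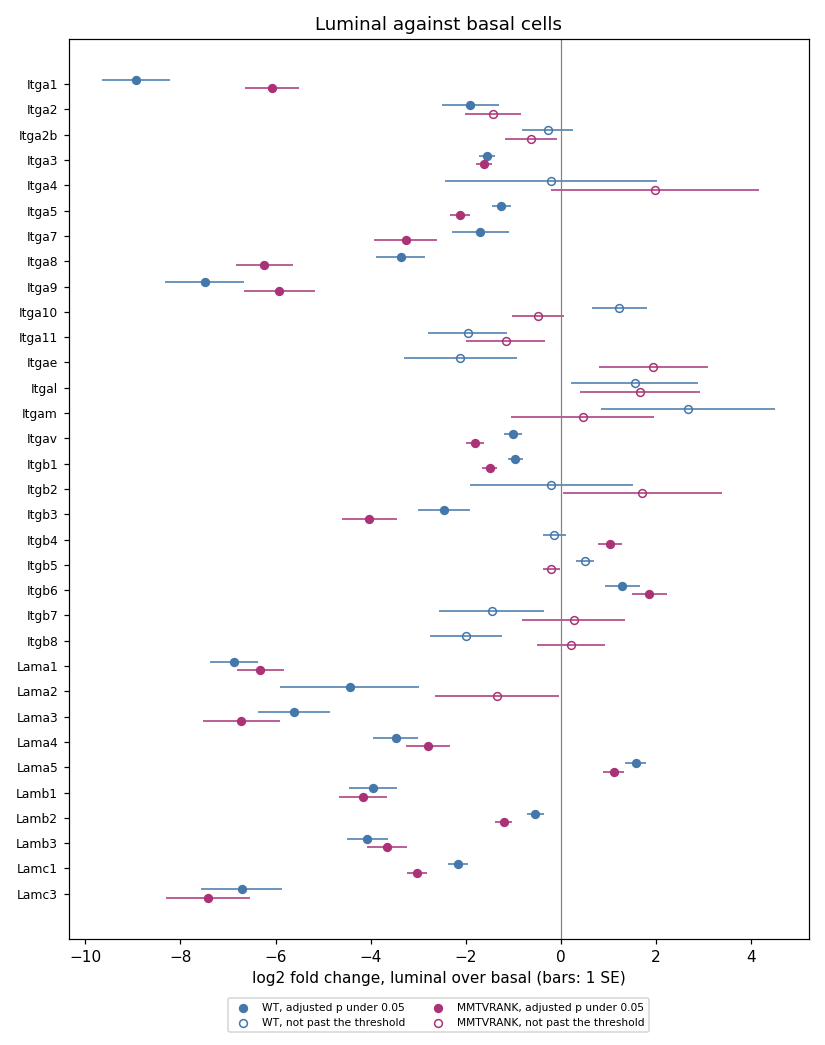
Log2 fold change, luminal over basal, of the 33 genes tested other than Itga6 in WT and in MMTVRANK mice, with bars of 1 SE, where filled points passed adjusted p under 0.05. Most points lie left of 0, and Lama5 and Itgb6 lie right of 0 in both genotypes.

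Genes that act beside these chains were counted from lists, to be read against the 38.1% of all genes called in WT (18% higher, 20% lower) and the 33.2% in MMTVRANK mice (16.1% higher, 17% lower). Of 34 genes of integrin activation and the adhesion plaque, 24 were lower and 2 higher in luminal cells of WT mice, and 24 lower and 3 higher in MMTVRANK mice. Tgfb1i1, a plaque adaptor, was at 26.7 ± 0.530 RPKM in basal and 0.279 ± 0.128 RPKM in luminal cells of WT mice (log2 −6.56, adjusted p = 1.83e-07). Tln1, which activates integrins from inside the cell, was at 93.3 ± 4.90 and 24.9 ± 2.72 RPKM (log2 −1.90, adjusted p = 2.57e-06). Of 12 hemidesmosome genes and other laminin receptors, 7 were lower and 1 higher in each genotype. Col17a1, a hemidesmosome collagen, was lower in luminal cells by a log2 difference of −7.19 (adjusted p = 5.05e-05) in WT mice, and Dag1 (dystroglycan) by −1.65 (adjusted p = 2.67e-05). Of 24 other basement membrane genes, 20 were lower and 3 higher in WT and 18 lower and 4 higher in MMTVRANK mice. Col4a5 was lower by −2.88 (adjusted p = 6.36e-07) in WT and by −3.35 (adjusted p = 2.4e-07) in MMTVRANK mice. Egflam was higher by 3.68 (adjusted p = 6.32e-06) in MMTVRANK mice. In WT mice the means of Egflam were 2.57 RPKM in basal and 15.2 RPKM in luminal cells. Of 21 other integrin ligands tested, 8 were lower and 6 higher in WT and 5 lower and 5 higher in MMTVRANK mice, with Icam1 lower by −2.71 (adjusted p = 2.12e-05) and Fgb higher by 7.13 (adjusted p = 0.000537) in WT mice. The list medians in WT mice were −1.35, −1.09, −4.50 and −0.44 in this order, and that of all genes −0.07.

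Between genotypes, the question was whether the transgene goes with other levels of these chains in luminal or in basal cells. By edgeR's quasi-likelihood test 0 of the 34 genes passed in luminal cells, where 0.252% of all genes did, and the lowest adjusted p was 0.0838. At an unadjusted p under 0.05 there were 12 of the 34, against 2183 of all 18236 genes tested. DESeq2, which called 4.1% of all genes, called 6 of 32 (Itga1, Itga7, Itga8, Itgb5, Itgb8 and Lama5), and limma-voom, which called 0.208%, called 0. With the replicate number as a block, Itga1 was called (3.28, adjusted p = 0.0470, where 0.565% of all genes were). With no filter on low counts, 12 of the 36 were called in luminal cells (3.58% of all genes), 2 in basal cells (0.924%) and 8 for the difference between genotypes (2.05%). In basal cells edgeR called 0 of the 34, where 0.00548% of all genes passed, with a lowest adjusted p of 0.652. There, 4 had an unadjusted p under 0.05, against 986 of all 18236 genes. DESeq2 called 0 in basal cells (0.445% of all genes) and limma-voom 0 (0.0%). The test of whether the lineage difference itself differed between genotypes called 0 of the 34 by edgeR (0.00548% of all genes). It gave 10 at an unadjusted p under 0.05, against 1410 of all 18236 genes. For this difference DESeq2 called 1 (Itga8, where 0.715% of all genes were called) and limma-voom 0 (0.0%). Without both WT replicate 2 libraries 0 of the 34 were called by edgeR in each of these 3 tests.

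Some genes had libraries of WT and MMTVRANK luminal cells that did not overlap. There were 2 with all MMTVRANK libraries higher (Itga1 and Lama1) and 8 with all lower (Itga3, Itga5, Itga7, Itga8, Itgav, Itgb1, Itgb5 and Lama5), among all genes 10.1% and 6.82%. In luminal cells Lama5 stood between 66.6 and 77.9 RPKM in WT and between 24.3 and 44.96 RPKM in MMTVRANK libraries, a log2 difference of −0.98 (SE 0.22, adjusted p = 0.0838). In basal cells it stood between 20.1 and 29.6 and between 16.3 and 17.1 RPKM, a log2 difference of −0.53 (SE 0.21, adjusted p = 0.869). Among the alternatives the luminal Lama5 value had an adjusted p from 0.000412 (no low count filter) to 0.317. Lama5 was thus lower in every MMTVRANK library of both populations than in any WT library of that population, without passing the threshold. Without both WT replicate 2 libraries the Lama5 value was −1.01 (adjusted p = 0.12) in luminal and −0.63 (adjusted p = 0.623) in basal cells. The sum of the 10 luminal markers was also lower in MMTVRANK luminal libraries. It was 17830, 14250 and 12060 CPM in WT and 11300, 10090 and 6843 CPM in MMTVRANK luminal libraries 1 to 3. Across WT luminal libraries 1 to 3 that sum fell while Lama5 rose (66.6, 68.6 and 77.9 RPKM). In MMTVRANK luminal cells both were lowest in replicate 3. In basal libraries that sum was 538.2, 529.1 and 540.4 CPM in WT and 391.3, 371.8 and 292 CPM in MMTVRANK mice. All MMTVRANK sums were thus below all WT sums of their population, with replicate 3 the lowest. By edgeR 0 of the 10 markers were called in either population, where 0.252% of all genes were in luminal and 0.00548% in basal cells. In each population 4 had an unadjusted p under 0.05, against 2183 of all 18236 genes in luminal and 986 in basal cells. The part of the luminal markers in the luminal values of Lama5 and Itgb5 was not tested.

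Itga8 in luminal cells ranged from 1.001 to 2.93 RPKM in WT and from 0.166 to 0.803 RPKM in MMTVRANK libraries, with a log2 difference of −2.37 (SE 0.52, adjusted p = 0.094). Without MMTVRANK luminal replicate 3, the library with the high leukocyte and basal markers, it was −3.46 (adjusted p = 0.00899), and without both replicate 3 MMTVRANK libraries −3.46 (adjusted p = 0.0215). The difference of the lineage differences was −2.87 (SE 0.70, adjusted p = 0.397) for Itga8 in all libraries and −3.94 (adjusted p = 0.0216) without MMTVRANK luminal replicate 3. Without both WT replicate 2 libraries the luminal Itga8 value was −2.69 (adjusted p = 0.0716). Among the alternatives it had an adjusted p from 3.36e-18 (no low count filter) to 0.245. The basal libraries of Itga8 stood at 22.5, 19.5 and 21.96 RPKM in WT and 30.3, 32.6 and 27.98 in MMTVRANK mice, where the MMTVRANK values were all higher, with a log2 difference of 0.51 (SE 0.47, adjusted p = 1). Itga8 shares 5.05% of its exon bases with RP23-202C2.2 on the other strand.

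The luminal value of Itga1 had the other sign, at 3.37 (SE 0.71, adjusted p = 0.0838), from 1, 4 and 7 counts in WT to 17, 24 and 103 counts in MMTVRANK libraries. Without MMTVRANK luminal replicate 3 its log2 difference was 2.22 (adjusted p = 0.113), and without MMTVRANK luminal replicate 1 it was 3.70 (adjusted p = 0.0392). Without both WT replicate 2 libraries it was 3.39 (adjusted p = 0.169). The adjusted p of Itga1 ran from 1.17e-18 (no low count filter) to 0.272 among the alternatives. The basal marker sum was highest in MMTVRANK luminal replicate 3, at 390.7 CPM, against 75.0 and 109.4 CPM in the other MMTVRANK and 36.9 to 112.5 CPM in the WT luminal libraries, and its part in the Itga1 value was not tested. Itgb5, a partner of Itgav, stood at 57.2, 41.7 and 35.9 RPKM in WT and 30.6, 27.3 and 23.5 in MMTVRANK luminal cells, a log2 difference of −0.73 (SE 0.19, adjusted p = 0.126). The 2 groups of Itgb5 values did not overlap, and without both WT replicate 2 libraries the difference was −0.78 (adjusted p = 0.152). Itgb8, a further partner of Itgav, stood at 0.765, 1.95 and 2.62 RPKM in WT and 1.42, 3.94 and 18.3 in MMTVRANK luminal cells, a log2 difference of 2.15 (SE 0.75, adjusted p = 0.26). Its high value was that of replicate 3, and without it the difference was 0.56 (adjusted p = 1). Itgb5 and Itgb8 were named after their values were seen.

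**Figure D4:**
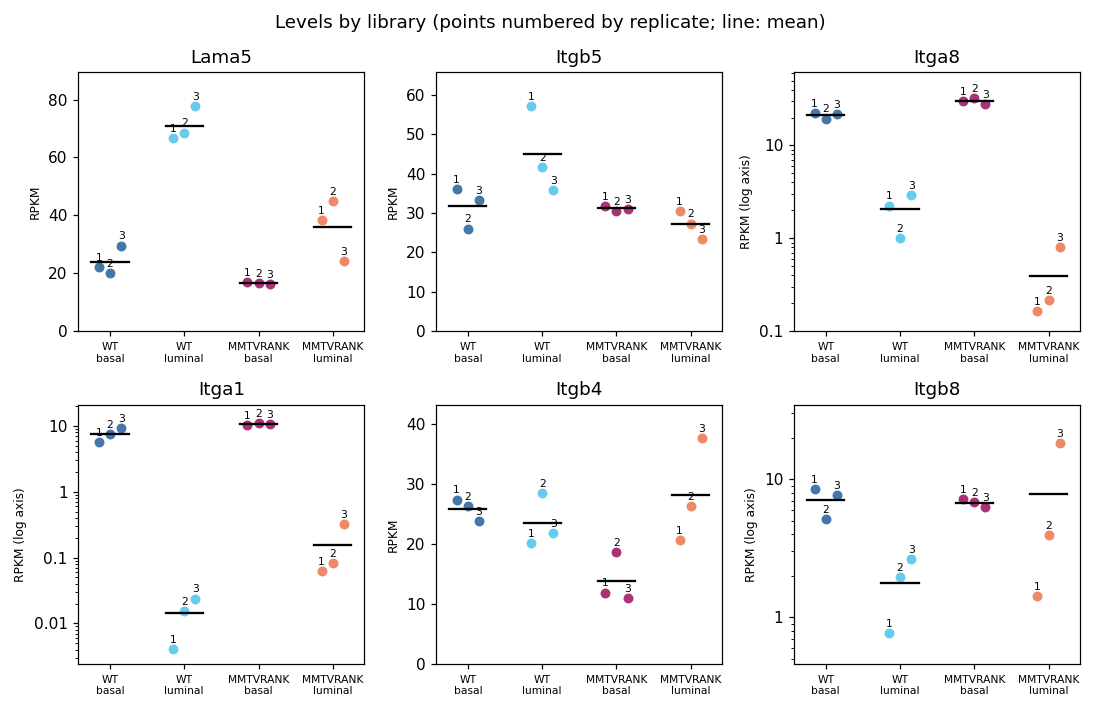
RPKM of 6 genes in each library by group, with points numbered by replicate and a line at the group mean, on a linear axis from 0 for Lama5, Itgb5 and Itgb4 and a log axis for Itga8, Itga1 and Itgb8. MMTVRANK luminal replicate 3 is the highest library of its group for Itga8, Itga1, Itgb4 and Itgb8 and the lowest for Lama5 and Itgb5.

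In basal cells 8 genes had all MMTVRANK libraries above all WT ones (Itga1, Itga6, Itga8, Itga10, Itgav, Lama1, Lama3 and Lamb2) and 3 had all below (Itgb4, Lama2 and Lama5), among all genes 6.6% and 4.52%. Itga10 shares 33.5% of its exon bases with RP23-204O17.1 on the same strand, so its reads could be split between them. Itgb4 ranged from 23.9 to 27.4 RPKM in WT and from 11.0 to 18.6 RPKM in MMTVRANK basal libraries, a log2 difference of −0.90 (SE 0.25, adjusted p = 0.652), and −0.88 (adjusted p = 0.566) without both WT replicate 2 libraries. In luminal cells Itgb4 differed by 0.26 (SE 0.24, adjusted p = 0.806), with overlapping libraries. Lama1 differed by 0.52 (SE 0.39, adjusted p = 0.99) in basal and 1.07 (SE 0.41, adjusted p = 0.302) in luminal cells, with all MMTVRANK libraries higher, without passing the threshold in either. Itga6 differed by 0.26 (adjusted p = 1) in basal and −0.08 (adjusted p = 0.967) in luminal cells, where the gate on its protein applied to both genotypes. Of the adhesion, basement membrane and ligand lists, Tns4, an adhesion plaque protein, fell in MMTVRANK luminal cells from 4.45 ± 2.52 to 0.788 ± 0.252 RPKM (log2 −2.49, adjusted p = 0.0387), and Spp1 (osteopontin, a ligand of Itgav and Itga9 receptors) also fell (log2 −6.32, adjusted p = 0.0263). No other gene of those lists was called by edgeR in luminal cells, where 0.252% of all genes were, and none in basal cells (0.00548%). Whether the calls on Tns4 and Spp1 hold under the alternatives or without both WT replicate 2 libraries was not examined.

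**Figure D5:**
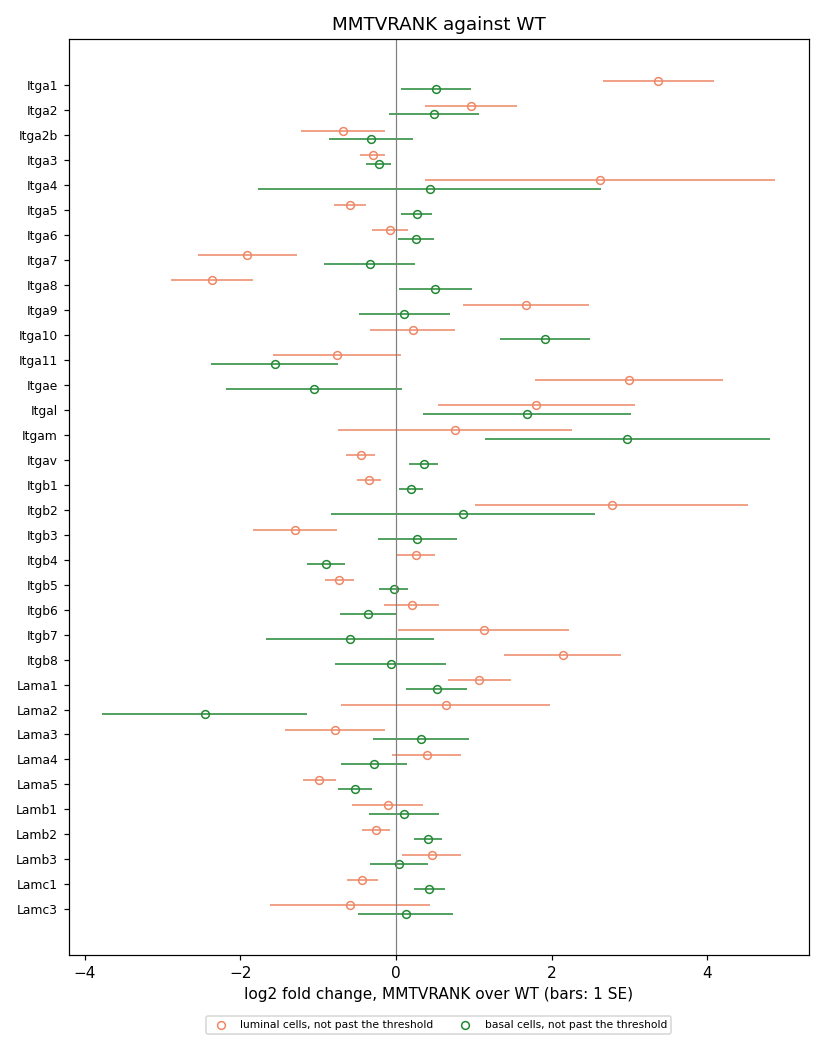
Log2 fold change, MMTVRANK over WT, of the 34 genes tested in luminal and in basal cells, with bars of 1 SE. All points are open because none passed adjusted p under 0.05, and Itga8, Itga7 and Lama5 in luminal cells lie left of 0 and Itga1 lies right of it.

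The leukocyte integrins had their highest levels in 1 library. Itgb2, the common beta chain of leukocyte integrins, had 319 counts (6.12 RPKM) in MMTVRANK luminal replicate 3 and stood at 1.49 RPKM or below elsewhere. In the same library Itgax, a dendritic cell and macrophage chain, had 260 counts (3.17 RPKM), Itgal (the LFA-1 alpha chain) 232 counts, Itga4 185 counts, Itgae 121 counts, Itgb7 105 counts and Itgam 32 counts. The other libraries held 0 to 74 counts of these genes, the most being Itgb7 in WT basal replicate 1, at 2.07 RPKM against 2.22 RPKM in MMTVRANK luminal replicate 3. Each of these 7 genes was higher there than in any other library, alongside the leukocyte marker sum of 1102 CPM and with Ptprc (CD45) at 48.7 CPM against 12.2 CPM or below elsewhere. Itgad had 0 to 9 counts per library. Itgam shares 68.7% of its exon bases with RP23-144N15.4, so its reads could be split between them. Itga2b, the platelet alpha chain, had 56 to 299 counts in every library, while the 4 platelet markers summed to 2.99 CPM at most and to 0 CPM in WT luminal replicate 1. None of the 7 leukocyte and platelet chains that were tested passed the threshold in any of the comparisons by edgeR with the filter. With no low count filter, edgeR called Itgb2 and Itgax between genotypes in luminal cells, where 3.58% of all genes were called. That fit also called Itgax between populations in MMTVRANK mice.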

How the data were processed

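For 12 libraries the authors deposited a table of raw counts by gene symbol, made with featureCounts 1.5.2 on GENCODE M17 without a strand option, per the file headers. Reads were aligned with STAR 2.6.1b to GRCm38.p6, per the submitters' processing notes. Gene length is the summed exon length of the deposited table, per the file headers, and was used for RPKM only. The RNA kit was the stranded SMARTer Pico kit for total RNA, per the labels' protocols.

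The members and gene lists were chosen with earlier results of these data known. Members were matched by symbol, and 1 further gene that the symbol patterns match is not reported here. Genes were filtered with filterByExpr (count minimum 10, about 0.728 CPM in the smallest group's number of libraries), scaled by TMM and tested with edgeR 4.0.16 (R 4.3.3) in a robust quasi-likelihood fit of the 4 groups, with contrasts for lineage, genotype and their difference. Members given in every library were those called between populations in WT mice with an average log2 CPM of at least 5 or an absolute log2 fold change of at least 3, plus 11 set by name; from pathway lists, those with the smallest p were named. The script was tested on simulated data. Depth was even across libraries, and counts of 0 allow up to 3 counts. Counting error only is covered by that floor. Alternatives were DESeq2 1.42.0, limma-voom (limma 3.58.1), other size factors, no filter, fits of the compared groups only, a replicate block and left-out libraries. Deviations of same-numbered libraries from their group means were correlated over 9330 genes. The correlations were all positive in luminal cells between genotypes (0.56, 0.115 and 0.418) and between populations in WT (0.291, 0.168 and 0.38) and MMTVRANK mice (0.258, 0.151 and 0.114). Between genotypes in basal cells they were of mixed sign (0.405, −0.047 and 0.16). Libraries of unlike number were not compared in this way. The pairing comes from these data, not from the labels. No 2 of the 66 pairs of libraries agreed within sampling noise (lowest chi-square per degree of freedom 28.6). Promoters are from RefSeq, GRCm38.p6. Entries were missing for Itga6, Itga7, Itgad, Itgae, Itgal, Itgb2, Itgb3, Itgb4, Lama1, Lama4, Lamc1 and Lamc3, and Lama3 was not shown.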

Additional observations from a re-analysis of the deposited data

How the results depend on the processing

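Among the counts of genes called, those between populations held under every alternative to within 1.5 times, at 18 to 23 of 34 in WT and 21 to 22 in MMTVRANK mice (Itga6 counted) when 1 library was left out, and at 18 in WT mice without both WT replicate 2 libraries. The counts between genotypes did not: in luminal cells, against 0 in the fit of all libraries, there were 6 called by DESeq2, 12 with no low count filter (3.58% of all genes) and 1 with the replicate block (Itga1). Leaving out 1 library gave 0 to 1, with Itga1 called without MMTVRANK luminal replicate 1 and Itga8 without MMTVRANK luminal replicate 3. Without both replicate 3 MMTVRANK libraries, a choice made after seeing the data, 1 was called (Itga8). In basal cells 2 were called with no low count filter (Itgb4 and Lama2; 0.924% of all genes). For the difference of lineage differences DESeq2 called 1, the fit with no filter 8 (2.05% of all genes), and leaving out 1 library 0 to 1. The cause was not tested, except that the left-out settings hold fewer libraries.

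With the replicate block 24 genes were called between populations in WT mice (gaining Itga11, Itgb5 at 0.48 with adjusted p = 0.0305 and Itgb8 at −2.19 with adjusted p = 0.0358, losing Itga7) and 22 in MMTVRANK mice (gaining Itga2). It changed no other call beside these and Itga1. For single genes 1140 values kept their direction and side of the threshold, 43 passed it where the value reported did not, and 34 lost it. No direction reversed among called values. Other size factors moved the median of all genes by at most 0.068 on the log2 scale. Depth limits the values that rest on few reads, such as Itga1 in WT luminal libraries (1, 4 and 7 counts).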
